A study of Mus musculus with 6 samples.

Results

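The 10 genes described here mark the mural cells of blood vessels, which are the smooth muscle cells of arteries and veins and the pericytes of capillaries. They were chosen by gene symbol as 6 contractile smooth muscle genes (Acta2, Myh11, Tagln, Cnn1, Smtn and Mylk) and 4 pericyte genes (Rgs5, Pdgfrb, Cspg4 and Notch3), out of 18193 genes with a symbol of their own on the array and 12946 genes that were tested. Transcripts were measured in whole-tissue RNA from mouse hearts under basal conditions, on 6 Affymetrix Mouse430_2 arrays of 45099 probe sets each. The hearts labelled KO came from 3 male C57BL/6J mice that were 2 to 3 months old and null for ERRα, the orphan nuclear receptor encoded by Esrra. The WT hearts came from 3 male mice, of which 2 were labelled C57BL/6J and 2 to 3 months old, while the labels of WT 1 give neither strain nor age. The labels do not say how the Esrra allele was made, in which cells it was lost, whether the mice were littermates, or whether atria and the roots of the great vessels were trimmed from the hearts. All 10 genes had at least 1 probe set past the filter on dim signals, and each was read from its brightest probe set, as MAS5 signal on a linear scale. In GRCm38.p6, Acta2 spans chr19:34240336-34255585 and Cnn1 chr9:22099221-22109221. Tagln and Cspg4 also lie on chromosome 9, Myh11 and Mylk on 16, Smtn on 11, Rgs5 on 1, Pdgfrb on 18 and Notch3 on 17. Where each probe set lies within its gene was not analysed here.

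In 1 heart the targeted gene went against the label. Esrra gave signals of 180.1, 24 and 18 in the hearts labelled KO 1 to 3, against 368.1, 394.4 and 349.1 in WT 1 to 3. The heart labelled KO 1 thus held 48.6% of the WT mean, which goes against its label, and every direction below is drawn with that heart included unless its omission is stated. A comment in the header of the WT 1 array gives it another WT mouse number than its title. WT 1 was also the brightest array, with a median signal of 16 against 12.4 to 13.7 on the other arrays. Differences are given as KO minus WT on a log2 scale after 16 was added to each signal, and a gene is said to have risen or fallen where limma's two-sided test, adjusted by Benjamini-Hochberg over all 12946 genes, gave a p below 0.05. That threshold was passed by 2.97% of all genes, with 1.78% higher and 1.18% lower in KO. The difference was positive in 45% of them. For 16.2% of all genes the KO and WT signals did not overlap, with KO above WT in 6.81% and below it in 9.41%. Nothing in the labels beyond the mouse numbers says that the hearts were processed separately, so the p-values apply to these 6 samples only. Each gene's p, SE and interval rest mostly on a variance shared across genes, and little on the spread between its own hearts. In bulk RNA, more cells of a type and more RNA per cell cannot be told apart.

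Smooth muscle cells contract when calcium and calmodulin activate myosin light chain kinase, which phosphorylates the light chain of smooth muscle myosin. Their contractile genes are switched on together by serum response factor (SRF) and its coactivator myocardin, through a DNA element known as the CArG box. Pericytes sit on capillaries, need platelet-derived growth factor signalling through PDGFRβ to be recruited, and carry little of the contractile apparatus. In the heart pericytes are among the most numerous non-muscle cells, whereas smooth muscle lies in the coronary arteries, the veins and the attached great vessels. Several of the contractile genes are not private to smooth muscle, since in mice Acta2 and Tagln are also on in activated fibroblasts and in immature heart muscle cells.

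The promoters of Acta2 and Cnn1 are shown because these were the members that passed the test. Each runs from 250 bases before to 50 bases after the start site given by the RefSeq table (GRCm38.p6), which for both lies inside the gene's annotated span, and capitals mark matches to a relaxed CArG box, CCNNNNNNGG with at least 5 of the 6 middle letters A or T. That pattern reads the same on both strands.
Acta2, chr19:34255324-34255623, minus strand: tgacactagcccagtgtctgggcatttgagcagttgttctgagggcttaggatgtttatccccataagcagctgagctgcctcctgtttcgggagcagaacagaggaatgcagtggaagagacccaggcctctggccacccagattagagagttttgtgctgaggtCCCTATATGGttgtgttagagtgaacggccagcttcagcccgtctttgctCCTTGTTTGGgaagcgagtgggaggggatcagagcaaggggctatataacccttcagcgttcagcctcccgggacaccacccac
Cnn1, chr9:22099003-22099302, plus strand: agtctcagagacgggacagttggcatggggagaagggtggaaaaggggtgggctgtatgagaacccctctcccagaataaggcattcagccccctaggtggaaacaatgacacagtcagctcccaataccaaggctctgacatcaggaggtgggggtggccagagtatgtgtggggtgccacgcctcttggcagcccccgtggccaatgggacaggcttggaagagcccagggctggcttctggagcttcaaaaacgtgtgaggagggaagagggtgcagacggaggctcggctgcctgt
The Acta2 window held 2 matches, CCCTATATGG and CCTTGTTTGG, which begin 84 and 34 bases before the annotated start site. That position was not checked against where transcription starts, so these are distances within the window and not measured promoter distances. Cnn1 had none in this window. Of 32851 promoters of the same length, 9.98% held at least 1 such match and 1.63% held a strict CArG box with all 6 middle letters A or T. Sequences were matched for 7 of the 10 genes, and Acta2 was the only one of these 7 with a relaxed match. The letters AAGGTCA, the core of the element that ERRα binds, were found on neither strand in any of the 7, against 4.72% of all promoters. These matches describe letters and not sites in use, and motifs farther from the start were not searched.

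Among the contractile genes, Acta2 and Cnn1 rose in the hearts labelled KO, by 0.87 and 0.84 on the log2 scale, while Tagln, Myh11, Mylk and Smtn had smaller positive differences that did not pass the test. Of the 6 contractile genes 2 were called higher and 0 lower, against 1.78% higher among all genes. For 0 of the 6 did the KO and WT groups separate fully, against 16.2% of all genes. The differences were positive in 6 of 6, against 45% of all genes. In each of the 6 genes, 2 of the 3 hearts labelled KO lay above all WT hearts, but not the same 2 in each.

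Acta2 encodes smooth muscle α-actin, the main actin of contractile smooth muscle. Its signal was 2028, 3281.9 and 3732.8 in the hearts labelled KO 1 to 3, against 1602.8, 1221.2 and 2037.9 in WT 1 to 3. KO 2 and KO 3 lay far above every WT heart, and KO 1 lay just below WT 3, so the groups overlapped by that 1 pair of hearts. The means were 3014 ± 883 in KO and 1621 ± 409 in WT (SD, n = 3 each), and KO minus WT was 0.87 on the log2 scale (SE 0.154, 95% interval 0.56 to 1.18, limma adjusted p = 0.000136). Without KO 1 the difference was 1.13, and without WT 1 it was 0.88 with an adjusted p of 0.134, so the call did not hold there. With quantile normalization, under which 2.02% of all genes were higher and 1.44% lower, it was 0.92 with an adjusted p of 0.0511. The suffix of this probe set marks probes that can match more than 1 transcript. When such probe sets were left out, Acta2 was read from a dim one, at 0.25 and with no call (adjusted p = 0.733). The other probe sets of Acta2 were dim. The brighter of them gave 7.5, 18.8 and 20.1 in KO 1 to 3 and 8.7, 11.2 and 10 in WT 1 to 3. Its hearts fell in a similar pattern, with KO 2 and KO 3 highest, and its log2 difference of 0.25 did not pass (limma adjusted p = 0.842 over all probe sets). In that fit, which holds every probe set with no filter, the bright Acta2 probe set did not pass either (adjusted p = 0.224).

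Cnn1 encodes calponin, an actin-binding protein that restrains smooth muscle myosin. It gave 82, 61.9 and 34.8 in the hearts labelled KO 1 to 3, against 9.7, 33.4 and 37.7 in WT 1 to 3. KO 1 and KO 2 were above every WT heart, and KO 3 lay between WT 2 and WT 3. These signals were dim. That of WT 1, at 9.7, was below the median signal of its array, 16, and could not be told from background here. The means were 59.6 ± 23.7 in KO and 26.9 ± 15.1 in WT, and KO minus WT was 0.84 on the log2 scale (SE 0.217, 95% interval 0.40 to 1.27, limma adjusted p = 0.018). The call rested on single hearts. The difference was 0.62 without KO 1 (adjusted p = 0.0862) and 0.50 without WT 1 (adjusted p = 0.37), the heart with the lowest Cnn1 signal. It was 0.82 with quantile normalization (adjusted p = 0.203).

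Tagln encodes transgelin, also called SM22α, an actin-binding protein and an early marker of the smooth muscle lineage. It gave 301.3, 263.3 and 175 in the hearts labelled KO 1 to 3, against 149.1, 129.1 and 214.3 in WT 1 to 3. KO 1 and KO 2 were highest, and KO 3 was below WT 3. The log2 difference of 0.54 (SE 0.184) did not pass (limma adjusted p = 0.113), and its 95% interval ran from 0.17 to 0.91. It passed without KO 3 (0.75, adjusted p = 0.0176), without WT 3 (0.73, adjusted p = 0.027) and with the filter at the 60th percentile (adjusted p = 0.0403). Without KO 1 it was 0.39 (adjusted p = 0.433), and without WT 2 it was 0.40. Myh11 encodes the smooth muscle myosin heavy chain, the most specific of these markers for mature smooth muscle. Its signals were 193.7, 184.4 and 131.1 in KO 1 to 3 and 147.1, 121.7 and 156.5 in WT 1 to 3. KO 1 and KO 2 again lay above all WT hearts, and KO 3 lay below WT 1 and WT 3. The log2 difference was 0.22 (SE 0.174, adjusted p = 0.685), with a 95% interval from -0.13 to 0.57. Leaving out single hearts moved it between 0.13 (without KO 1 or WT 2) and 0.38 (without KO 3), with no call.

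Mylk encodes myosin light chain kinase, and Smtn encodes smoothelin, a cytoskeletal protein of contractile smooth muscle that is also made in heart muscle in a longer form. Mylk gave 136.6, 119.5 and 133.2 in KO 1 to 3 and 121.3, 111 and 120.6 in WT 1 to 3. Its log2 difference was 0.12 (SE 0.168, adjusted p = 0.853, 95% interval -0.21 to 0.46). A dimmer Mylk probe set pointed the other way, with 48.9, 62.4 and 53.6 in KO against 67.6, 54.2 and 65.6 in WT, a log2 difference of -0.15 (SE 0.165). The Mylk probe sets therefore differed in sign. Smtn gave 213.4, 308.4 and 269.9 in KO 1 to 3, against 268.3, 242 and 231.9 in WT 1 to 3, so KO hearts held both its lowest and its highest signal. The log2 difference of Smtn was 0.076 (SE 0.167, adjusted p = 0.918, 95% interval -0.26 to 0.41).

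**Figure D1:**
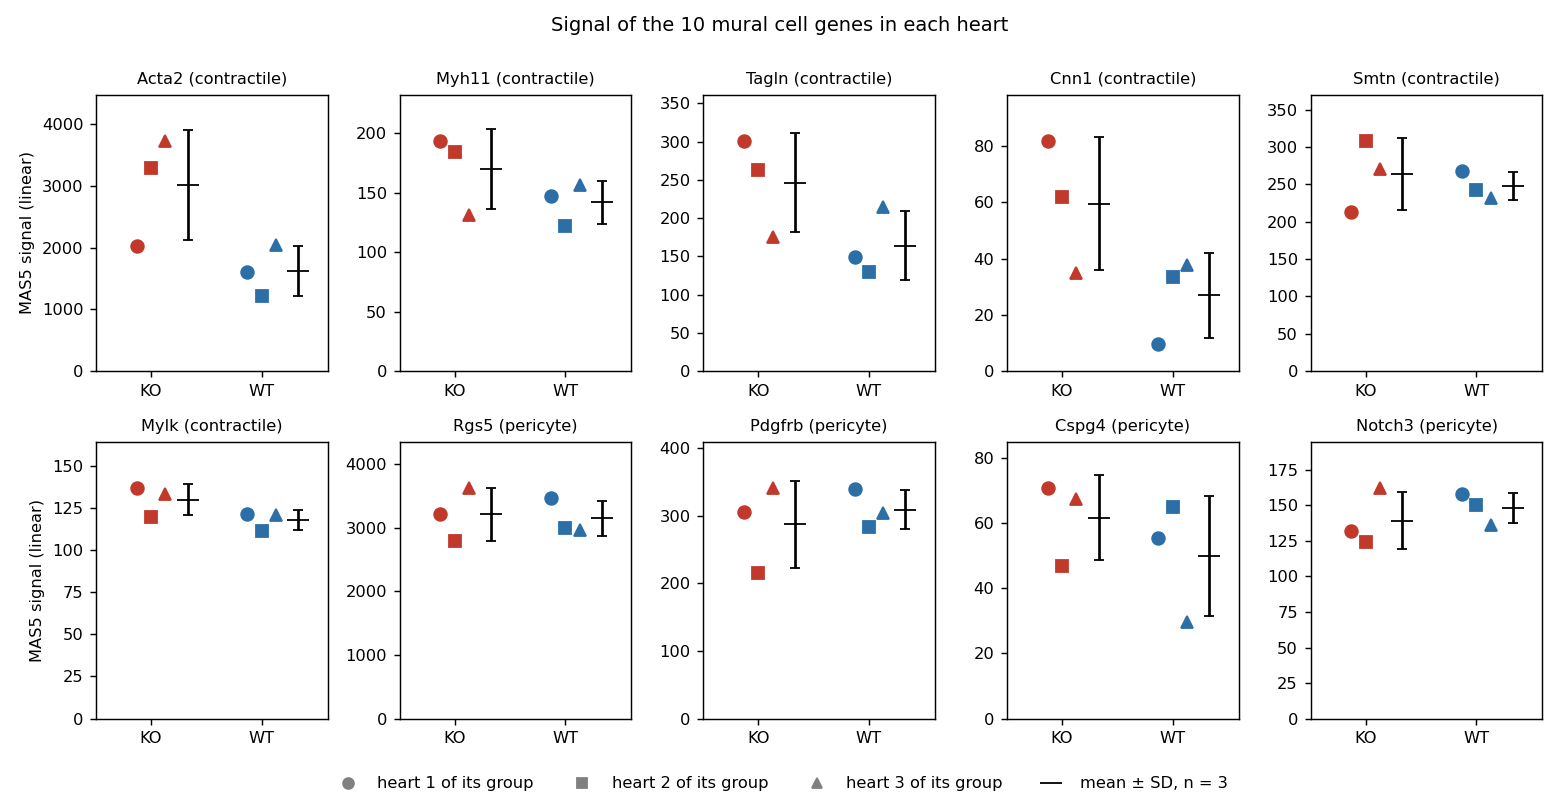
MAS5 signal (linear scale, each axis from 0) of the 6 contractile and 4 pericyte genes, with 1 point per heart, hearts labelled KO at left in red and WT at right in blue, and the mean ± SD of 3 hearts beside each group. Acta2, Cnn1, Tagln, Myh11, Mylk and the pericyte gene Cspg4 have 2 KO hearts above every WT heart and 1 within the WT range. For Smtn, Rgs5, Pdgfrb and Notch3, KO hearts hold both the lowest and the highest signal.

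None of the 4 pericyte genes passed the test in either direction, against 2.97% of all genes, in limma or under any of the 18 alternative settings of it, and none had an unadjusted p under 0.05, a level that 12.5% of all genes reached. Rgs5 encodes a regulator of G protein signalling that is strongly on in pericytes. It gave 3216.3, 2786.5 and 3621.2 in the hearts labelled KO 1 to 3, against 3469.8, 2996.6 and 2966.2 in WT 1 to 3. The log2 difference was 0.024 (SE 0.117, limma adjusted p = 0.968). The 95% interval, from -0.21 to 0.26, was the narrowest of the 10 genes. Its width rests mostly on the variance shared across genes, and the Rgs5 hearts were not the closest together. Their log2 SDs were 0.19 in KO and 0.13 in WT, against 0.091 and 0.063 for Mylk, whose interval was wider. The other 3 probe sets of Rgs5 had log2 differences of 0.16, 0.0034 and 0.13, and KO 3 gave the highest signal on 2 of them. Pdgfrb encodes the receptor that recruits pericytes to vessels. Its signals were 305, 215.9 and 340.6 in KO 1 to 3 and 339.6, 282.7 and 304 in WT 1 to 3. The hearts labelled KO again held both the lowest and the highest value, and the log2 difference was -0.12 (SE 0.169, adjusted p = 0.861, 95% interval -0.46 to 0.22).

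Cspg4 encodes the proteoglycan NG2 on the pericyte surface. It gave 70.7, 46.7 and 67.5 in KO 1 to 3, against 55.5, 64.9 and 29.5 in WT 1 to 3, the widest relative spread within WT of the pericyte genes. As in each contractile gene, 2 of the 3 hearts labelled KO (KO 1 and KO 3) lay above all WT hearts on this Cspg4 probe set. Its log2 difference was 0.26 (SE 0.191, adjusted p = 0.655, 95% interval -0.12 to 0.65). Without WT 3, its dimmest heart, the difference was 0.015, and without WT 2 it was 0.43. Another Cspg4 probe set, nearly as bright, did not repeat the pattern. It gave 48.9, 40.4 and 64.9 in KO 1 to 3, against 64.8, 33.9 and 38.7 in WT 1 to 3. Only KO 3 lay above all WT hearts there, and barely, with a log2 difference of 0.14 (SE 0.219). Notch3 encodes the Notch receptor of mural cells, needed in mice for mature arterial smooth muscle. It gave 131.8, 124.1 and 162.1 in KO 1 to 3, against 157.7, 150.3 and 136.5 in WT 1 to 3. Here KO 1 and KO 2 were the lowest of the 6 hearts and KO 3 the highest. The log2 difference was -0.085 (SE 0.170, adjusted p = 0.907, 95% interval -0.43 to 0.26). The suffix of this probe set, too, marks probes that can match more than 1 transcript. A dimmer Notch3 probe set pointed the other way, with 33.4, 38.9 and 43.2 in KO 1 to 3 against 42.9, 25.6 and 34.1 in WT 1 to 3. Its log2 difference was 0.13 (SE 0.196). Differences within these intervals cannot be told from 0 for these genes with 3 hearts a group.

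**Figure D2:**
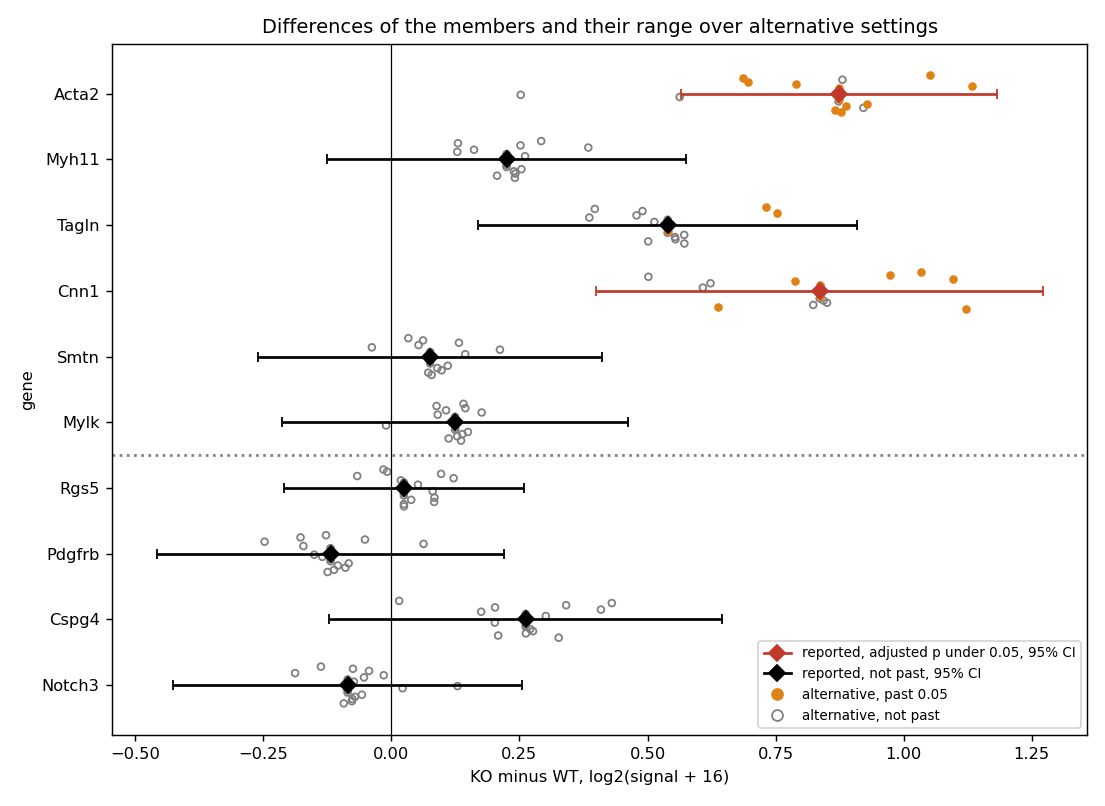
KO minus WT difference on the log2(signal + 16) scale for each gene, contractile genes above the dotted line, with the reported value and its 95% interval as a diamond and bar and the 18 alternative settings as circles. The intervals of Acta2, Cnn1 and Tagln lie above 0, and those of the other 7 genes include 0. These intervals rest mostly on a variance shared across genes, and little on the spread of each gene's own hearts.

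Set side by side in each heart, the mean of the contractile genes was above the WT mean in all 3 hearts labelled KO, and that of the pericyte genes was not. Single contractile genes did fall below it, Smtn in KO 1 at -0.20 and Myh11 in KO 3 at -0.094. The mean of the 6 contractile genes, on the log2 scale and relative to the WT mean, was 0.48, 0.55 and 0.31 in KO 1 to 3, against -0.091, -0.11 and 0.20 in WT 1 to 3. The mean of the 4 pericyte genes was 0.077, -0.23 and 0.21 in KO 1 to 3, against 0.13, 0.044 and -0.17 in WT 1 to 3. Contractile minus pericyte means were 0.40, 0.78 and 0.095 in KO 1 to 3, against -0.22, -0.16 and 0.38 in WT 1 to 3. The gap averaged 0.42 ± 0.34 in KO and 0 ± 0.33 in WT (SD, n = 3 each, the WT mean being 0 by construction). WT 3 thus had about the gap of KO 1, and KO 3 had a smaller gap than WT 3. The difference in the gap was 0.25 without KO 2 and 0.61 without WT 3. No p is given for these means, because their genes were chosen with earlier results known.

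The contractile genes did not follow a single order of hearts. Acta2 was highest in KO 3 and KO 2, at 1.23 and 1.04 above the WT mean on the log2 scale, and at 0.35 in KO 1. Cnn1 ran the other way, at 1.26 in KO 1, 0.93 in KO 2 and 0.31 in KO 3. Tagln (0.84, 0.66 and 0.11 in KO 1 to 3) and Myh11 (0.42, 0.35 and -0.094) had the same order as Cnn1. The heart labelled KO 2 was the one in which Acta2, Tagln, Cnn1 and Myh11 were all above every WT heart. In that same heart Rgs5, Pdgfrb and Notch3 gave their lowest signals of the 6 hearts. KO 3, by contrast, held the highest Acta2, Rgs5, Pdgfrb and Notch3 signals.

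**Figure D3:**
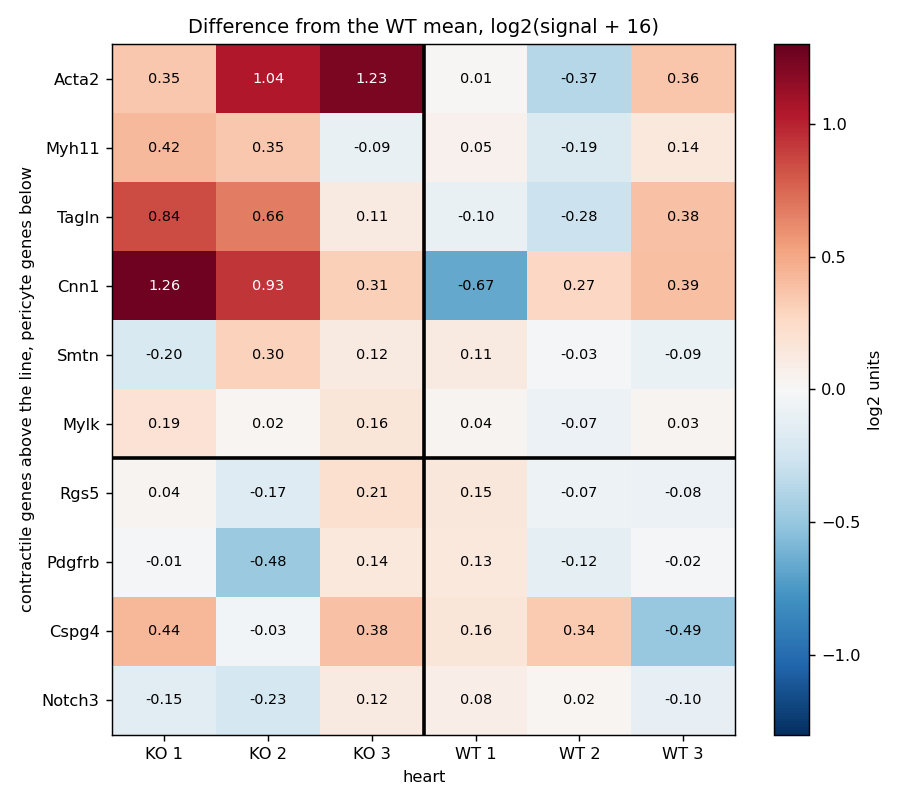
Difference of each gene from its WT mean on the log2(signal + 16) scale, with hearts as columns (KO 1 to 3, then WT 1 to 3) and genes as rows, contractile above the black line and pericyte below. Acta2 is darkest in KO 3 at 1.23 and Cnn1 in KO 1 at 1.26, while Pdgfrb is lowest in KO 2 at -0.48.

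Among 25 other tested genes of the smooth muscle contractile machinery, 1 rose and 1 fell in KO, against 1.78% and 1.18% of all genes. The other 23 did not pass. The median log2 difference of the 25 was 0.10, against -0.028 over all genes. Myl9, the regulatory light chain of smooth muscle myosin and the target of Mylk, gave 536.4, 729.1 and 754.3 in KO 1 to 3, against 326.9, 319.1 and 417.7 in WT 1 to 3. All 3 KO hearts lay above all WT hearts, and the order of the hearts within each group was that of Acta2. The means of Myl9 were 673 ± 119 in KO and 355 ± 54.8 in WT, and KO minus WT was 0.89 on the log2 scale (SE 0.161, limma adjusted p = 0.000194). Myl9 passed in all 18 alternative settings, with differences from 0.80 to 1.04 and adjusted p up to 0.0425. Hspb6, a small heat shock protein of smooth and heart muscle, fell to 3452 ± 891 in KO, against 4966 ± 468 in WT (log2 difference -0.55, adjusted p = 0.00423), and did not pass without KO 3 or without WT 1. Lmod1, an actin filament nucleator of smooth muscle, gave 23.2, 7.8 and 26.1 in KO and 3, 1.9 and 9.5 in WT, signals too dim to be told from background here (log2 difference 0.73, adjusted p = 0.101). With quantile normalization 3 genes of this list rose, Myl9, Flna and Rock1, and 0 fell.

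Of 11 genes of SRF, its myocardin family coactivators and their regulators, 1 rose and 0 fell, against 1.78% and 1.18% of all genes. The other 10 did not pass, and the median of the list was 0.033. The gene that rose was Klf4, a zinc finger factor that represses contractile genes in mouse smooth muscle and is also on in endothelium. It gave 310, 244.5 and 471.3 in KO 1 to 3, against 209, 172.7 and 178.3 in WT 1 to 3, with no overlap (log2 difference 0.78, SE 0.179, limma adjusted p = 0.00573). Klf4 did not pass without KO 3 or without WT 1. The next smallest p-values were those of Fhl1, at -0.27, and Foxo4, at 0.26, and neither passed. Among 16 receptors and signal carriers of vascular tone 1 rose and 1 fell, against 1.78% and 1.18% of all genes. The median of the list was 0.0068. Rgs2, which damps signalling by vasoconstrictor receptors, rose to 431 ± 97.1 in KO, against 275 ± 59.3 in WT (log2 difference 0.62, adjusted p = 0.0297). Agtr1a, an angiotensin II receptor, fell to 213 ± 39.9 in KO, against 338 ± 71.3 in WT (log2 difference -0.62, adjusted p = 0.0311). Neither Rgs2 nor Agtr1a passed without KO 3 or without WT 1. Agtr1a also did not pass without KO 2 or without WT 2, and Rgs2 did not without WT 3. Ednrb, an endothelin receptor, was at 0.39 and did not pass.

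On the pericyte side, 0 of 21 other pericyte and mural genes passed the test, against 2.97% of all genes, with a median of 0.035. At that share, a list of this size would hold few or no calls. The smallest p-values were those of Steap4, a metalloreductase (log2 difference 0.60, limma adjusted p = 0.0793), Aoc3, an amine oxidase of vascular smooth muscle (0.47, adjusted p = 0.157), and Gucy1a1, a subunit of the nitric oxide receptor (0.36, adjusted p = 0.336). Steap4 passed without WT 1, without KO 3, with array weights and with the filter at the 60th percentile, and was at 0.38 without WT 2 (adjusted p = 0.477). Of 8 genes of the PDGF system 1 rose, against 1.78% of all genes. It was Lrp1, an endocytic receptor that binds PDGFRβ. Lrp1 gave 244.3, 314.7 and 353.1 in KO 1 to 3, against 196.6, 163.4 and 212.1 in WT 1 to 3, with no overlap (log2 difference 0.62, adjusted p = 0.0258). Its call was lost without KO 2, KO 3, WT 1 or WT 2. Pdgfra, the receptor of fibroblasts, was at 0.35 and the ligand gene Pdgfa at 0.29, and neither passed. Of 17 genes of the Notch pathway, which acts in mural cells through Notch3, 0 passed, against 2.97% of all genes. The median of the list was 0.12. Notch1 was at 0.41, Notch2 at 0.32 and the Notch target Hey2 at 0.34, with adjusted p from 0.268 to 0.517. Averaged over its probe sets, Notch2 was at -0.13.

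**Figure D4:**
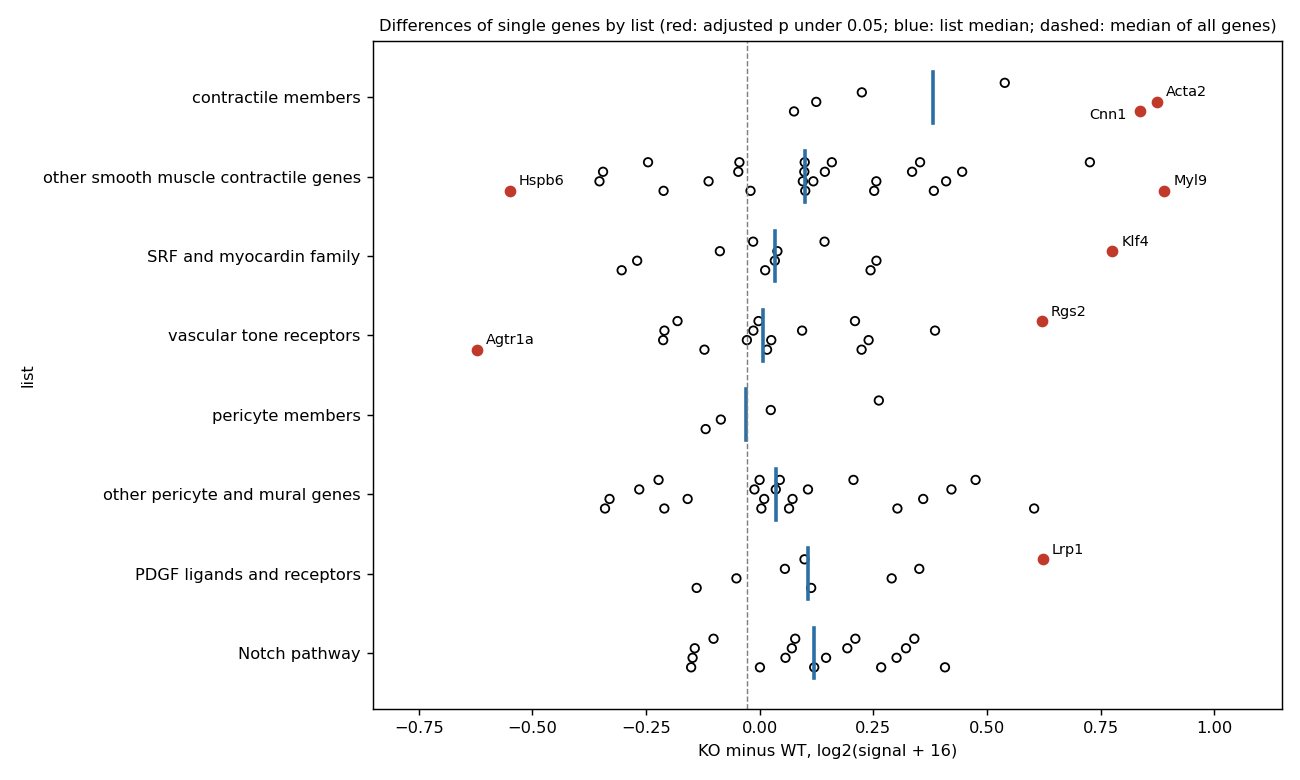
KO minus WT difference on the log2(signal + 16) scale for each tested gene of 8 lists, with genes past an adjusted p of 0.05 filled and named, the list median as a blue bar and the median of all genes, -0.028, as a dashed line. Acta2, Cnn1, Myl9, Klf4, Rgs2 and Lrp1 lie to the right, and Hspb6 and Agtr1a to the left.

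Markers of other tissues moved with the contractile genes, and their part in these differences was not tested. All 8 atrial myocyte markers rose, against 1.78% of all genes. The summed signal of these markers was 14291.7 to 17000.5 in the hearts labelled KO, against 3133.8 to 9959.2 in WT. The mean of the atrial markers relative to the WT mean, on the log2 scale, was 1.88, 1.75 and 1.48 in KO 1 to 3, against -0.23, -0.59 and 0.82 in WT 1 to 3. WT 3, the WT heart with the highest atrial markers, also gave the highest Acta2, Tagln, Cnn1 and Myh11 signals of the WT hearts, whereas Smtn was lowest in WT 3 and Mylk highest in WT 1. Among KO hearts the order of the atrial means was that of Cnn1, Tagln and Myh11, and the reverse of that of Acta2. Dkk3, a secreted protein abundant in atria, had the smallest p of this list (log2 difference 2.03, limma adjusted p = 4.93e-11). The 4 tested adipocyte markers also rose, 2 of them also with quantile normalization, with means of 0.88, 2.65 and 2.40 in KO 1 to 3, against 0.049, -0.075 and 0.026 in WT 1 to 3. Their summed signal was 316.5 to 1816.7 in KO and 75.2 to 98.9 in WT, and the difference of Car3, a carbonic anhydrase of fat and muscle, was 3.59 on the log2 scale. KO 2 and KO 3 were the high hearts there, as they were for Acta2, Myl9 and Smtn, but not for Cnn1, Tagln, Myh11 or Mylk.

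Genes of large elastic arteries, in which smooth muscle makes the elastic layers, had positive differences in 9 of 9 tested, against 45% of all genes. Of these 3 passed, against 1.78% higher among all genes. Mfap4, counted among the 9, gave 2, 2.8 and 3.3 in WT 1 to 3, below the filter signal of 8.17. It passed the filter only through the KO hearts (10, 8 and 47.1), so its direction follows from the filter. The mean of the 9, Mfap4 included, was 0.37, 0.35 and 0.80 in KO 1 to 3, against 0.14, -0.18 and 0.043 in WT 1 to 3. Their summed signal was 3803.7 to 4380.5 in KO and 2447.8 to 3182.6 in WT. Mgp, the matrix Gla protein that keeps arteries from calcifying, was at 0.54 (adjusted p = 0.00424). Of 12 fibroblast markers 2 rose, against 1.78% of all genes. The mean of the 12 was 0.22, 0.33 and 0.57 in KO 1 to 3, against 0.12, -0.12 and -0.00036 in WT 1 to 3. Summed signals were 9597.1 to 11636.4 in KO and 7242.4 to 8732.6 in WT. With quantile normalization 6 of the 12 rose. Mfap5, a microfibril protein, was at 0.67 (adjusted p = 0.0104). Of 11 genes of activated fibroblasts 2 rose, against 1.78% of all genes. The summed signal of the list was 1775.8 to 1851.8 in KO and 921.3 to 1087.8 in WT. Ccn2, a matrix-associated growth factor, was at 1.45 on the log2 scale (adjusted p = 3.43e-09). None of these lists had a gene at 0 in all hearts.

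Endothelial markers, which share the capillary with pericytes, did not pass for any of 12 genes, against 2.97% of all genes. The median difference of the 12 was 0.0088. Robo4, which had the smallest p of that list, was at 0.39 (limma adjusted p = 0.285). Their summed signal overlapped, at 5686 to 7012.2 in KO and 5555.6 to 6889.7 in WT. The means of the endothelial and of the pericyte members were both highest in KO 3, at 0.25 and 0.21, and WT 1 came next for both, at 0.19 and 0.13. Ventricular myocyte markers gave 70154.7 to 74657.1 in KO and 74599.6 to 82263.7 in WT as summed signal. Of these 0 of 10 passed, against 2.97% of all genes. All 10 differences were negative, with a median of -0.091, whereas 45% of all genes had a positive difference. The median of the list was -0.0029 with quantile normalization and -0.022 with cyclic loess. Mybpc3, a myosin-binding protein of heart muscle, had the smallest p, at -0.33 (adjusted p = 0.109), and passed without KO 1 (adjusted p = 0.0366) and with the replicate block (adjusted p = 0.0267). Of 5 lung markers 2 passed the test, Scgb1a1 and Scgb3a2, and 0 passed with quantile normalization or without KO 2. Both were below the filter signal of 8.17 in every WT heart and passed the filter only through KO hearts, so no group difference is drawn from them. Summed signals of the list were 55.5 to 520.8 in KO and 34.1 to 47.1 in WT, highest in KO 2. Scgb1a1, a secreted protein of airway cells, gave 2.5, 323.5 and 23.2 in KO 1 to 3, against 4.2 or less in WT. KO 2 was among the 2 hearts with the highest signal for 5 of the 6 contractile genes, Mylk being the exception. KO 1, where Scgb1a1 was no higher than in WT, was among the 2 highest for Myh11, Tagln, Cnn1 and Mylk. Whether the airway signal bears on the contractile genes was not tested.

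**Figure D5:**
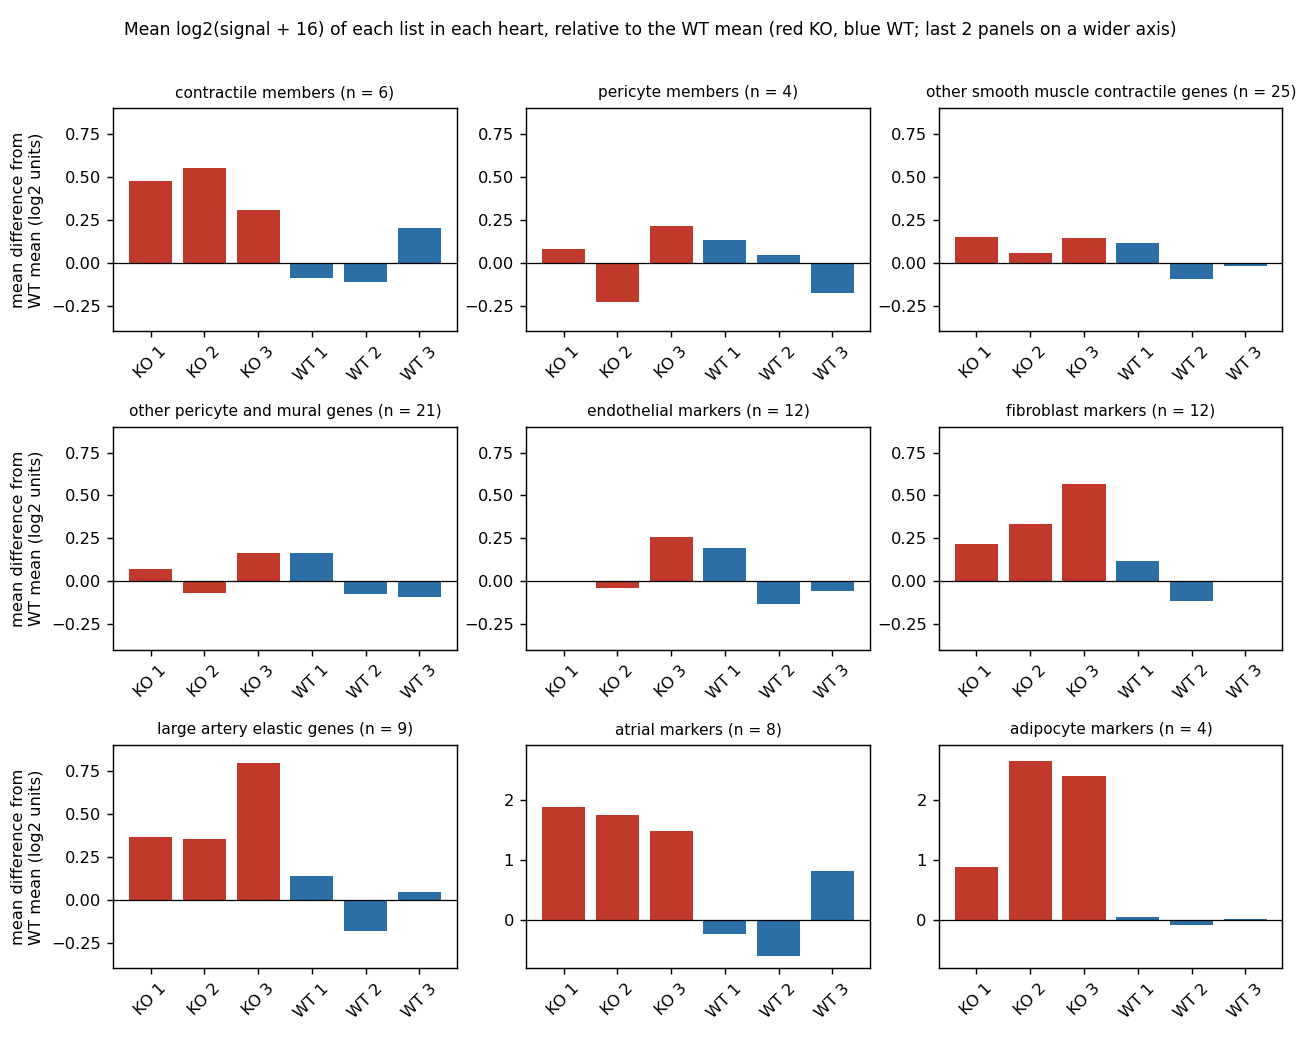
Mean difference from the WT mean, in log2 units, of the tested genes of 9 lists in each heart, with hearts labelled KO in red at left, WT in blue at right, and a wider axis for the atrial and adipocyte lists. The list means of the contractile members and of the fibroblast, large artery, atrial and adipocyte lists are higher in every KO heart than in any WT heart, while those of the other 4 lists overlap.

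Of the 4897 tested genes with a mean signal of at least 100 outside the 10 members, those whose pattern over the 6 hearts lay nearest to the contractile mean were Aldh1a1, Ptgis, Hspa8, Gtf2b, Fmod and Cebpd. Likeness was the root mean square distance between log2 deviations over the 6 hearts, which ran from 0.074 for Aldh1a1 to 0.113 for Cebpd. Aldh1a1, a retinaldehyde dehydrogenase, gave 240.1, 258.5 and 217.9 in KO 1 to 3, against 168.2, 165.6 and 178 in WT 1 to 3. Ptgis, the prostacyclin synthase, gave 248.2, 247 and 242.4 in KO, against 179, 143.5 and 200.5 in WT. Hspa8, a constitutive heat shock protein, gave 5454, 5004.3 and 4735.4 in KO, against 3732.4, 3187.8 and 3788.2 in WT. Because these 6 genes were picked for a pattern that is higher in every KO heart, their direction follows from the choice, and their levels are given as a description with no test.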

How the data were processed

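RNA of 6 mouse hearts was measured on Affymetrix Mouse430_2 arrays, the chip type per the file headers. The authors deposited 1 linear signal intensity for each probe set, computed with MAS5 per the submitters' processing notes, from 0 to 10889.5. For the scaling target and for detection calls, the sources used here are silent, so dim signals could not be told from background. Among 45099 probe sets, 62 are controls, 34945 carry a single symbol in GEO's platform annotation, 932 carry several symbols and 9160 carry none.

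Log2(signal + 16) was used with no further scaling, which understates the change of dim genes. Probe sets whose mean log2 value reached the 40th percentile (a signal of 8.17) were kept, and the brightest of a gene's probe sets stood for it, leaving 12946 genes. Of the 21 probe sets of the 10 members 18 passed. KO was set against WT in limma 3.58.1 under R 4.3.3 (lmFit, then eBayes with its trend option), and the two-sided p-values were adjusted by Benjamini-Hochberg. With 45.6 prior degrees of freedom, a gene's own spread counts little in its p. On data simulated for KO against WT over 12946 genes, 72 of 100 genes changed by 1 on the log2 scale and 98 of 100 changed by 2 were recovered. The members and lists were chosen with earlier results of these data known, and lists are described by counts and medians with no test. Named genes were the 10 members, Esrra, the genes of smallest p or past the test in each list, and 6 genes of like pattern. Promoters came from RefSeq (GRCm38.p6). The 18 alternatives changed the pseudocount, scaling, filter, choice of probe set or variance model, added a replicate block, or left out 1 heart. The number of arrays limits the precision.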

Additional observations from a re-analysis of the deposited data

How the results depend on the processing

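Of 18 alternatives, the count of contractile genes past the test, 2 as reported, was 0 with quantile normalization, with no filter on dim probe sets, with the mean of all probe sets and with no intensity trend. It was 1 with median centring, cyclic loess or array weights, and 1 of the 5 that remained without shared-probe sets. Leaving out single hearts gave 0 to 3, with 0 without WT 1, 1 (Acta2) without KO 1, and 3 (Tagln too) without KO 3 or without WT 3. It was also 3 with the filter at the 60th percentile. The replicate block left 2. Same-numbered hearts deviated from their group means with correlations of 0.027, -0.016 and 0.029 across genes, so the numbers do not pair the hearts. The Acta2 difference was 0.56 averaged over its probe sets and 0.25 without shared-probe sets. The count of pericyte genes past the test was 0 throughout. The contractile mean difference lay between 0.37 and 0.55, and the gap to the pericyte mean between 0.25 and 0.61, in the 13 alternatives that bear on them. The pericyte mean difference lay between -0.075 and 0.14. Esrra kept its direction, from -3.39 to -2.12, and missed the threshold without WT 1 (-2.59, limma adjusted p = 0.0675).

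Small differences turned sign: Mylk (-0.010), Notch3 (0.022) and Notch2 (-0.13) with the mean of all probe sets, Notch3 (0.13) without shared-probe sets, Smtn (-0.038) and Pdgfrb (0.063) without KO 2, and Rgs5 without KO 3 (-0.067), WT 2 (-0.0082) or WT 3 (-0.016). Leaving out single hearts moved Smtn between -0.038 and 0.21, Rgs5 between -0.067 and 0.12, Pdgfrb between -0.25 and 0.063, and Cspg4 between 0.015 and 0.43. None of these passed the test in any setting. The cause of the lost calls was not tested. In several fits without single hearts, and with the filter at the 60th percentile, the p rests on the shared variance alone. A smaller p in those fits is not stronger evidence. All-gene counts were 301 higher and 208 lower without KO 1, 175 and 85 without KO 2, 123 and 78 without KO 3, 105 and 22 without WT 1, 48 and 18 with no filter, 114 and 57 with no trend, and 434 and 176 with array weights, against 231 and 153 as reported.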
